A study of Homo sapiens with 16 samples.

Results

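PT and the gliadin peptide p31-43 were compared directly in Caco-2 cells, an epithelial line from a human colon carcinoma. PT is the pepsin and trypsin digestion mixture made without any substrate, and it served as the blank for digested gliadin (PT-G). Per the study's methods both enzymes had been heat-inactivated, which an activity assay with a trypsin substrate checked. The p31-43 peptide was synthetic and was given at 150 µg/ml, whereas no concentration of PT is stated in the labels. Undifferentiated cells in medium with little serum were exposed to either agent for 6 h, and 1 single-colour Agilent array was hybridised per culture. All cultures were released from the flask with trypsin before RNA extraction, those of both groups alike. The comparison took the 4 PT arrays and the 4 p31-43 arrays, 8 of the 16 arrays of the series, as the labels name them. The 4 arrays kept in medium and the 4 PT-G arrays entered no test and are given only as levels. The arrays of a group came from 4 independent experiments a passage or so apart, so 1 cell line stands for the epithelium and the spread is that between cultures of this line.

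Growth factors, proteases and stress activate the MAP kinase cascade, and its kinase ERK switches on a first wave of genes within minutes to hours. That wave holds transcription factors of the EGR, FOS, JUN and KLF families together with the inhibitors that shut the cascade down again, among them the dual specificity phosphatases (DUSP) and the Sprouty proteins. The peptide p31-43 resists digestion and is known for effects on epithelial cells that do not need its recognition by T cells.

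Upstream sequences are shown for a pair of genes higher with PT because they hold the binding motifs of stress and growth responsive factors that were searched for. They were picked after the matches were seen. The sequences are those of RefSeq on GRCh38.p14, 250 bases before the annotated start, with motif matches in capitals. HSPA6 (chr1:161524290-161524539, plus strand) encodes a stress-inducible heat shock protein of the HSP70 family, and MAFF (chr22:38201744-38201993, plus strand) a small MAF transcription factor.
HSPA6: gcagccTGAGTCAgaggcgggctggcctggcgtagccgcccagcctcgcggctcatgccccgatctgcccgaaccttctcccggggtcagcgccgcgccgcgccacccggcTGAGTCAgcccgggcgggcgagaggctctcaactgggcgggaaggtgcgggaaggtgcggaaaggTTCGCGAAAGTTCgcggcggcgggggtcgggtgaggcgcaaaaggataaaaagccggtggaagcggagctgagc
MAFF: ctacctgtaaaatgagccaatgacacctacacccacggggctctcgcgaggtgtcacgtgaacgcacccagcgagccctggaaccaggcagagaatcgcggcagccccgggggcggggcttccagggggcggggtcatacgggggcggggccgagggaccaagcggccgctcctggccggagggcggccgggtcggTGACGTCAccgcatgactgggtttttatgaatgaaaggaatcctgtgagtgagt

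The HSPA6 sequence holds the AP-1 motif TGANTCA, which starts 244 and 139 bases before the gene, and a heat shock element, searched as 3 alternating GAA and TTC units spaced by 2 bases, which starts 74 bases before it. The MAFF sequence holds the cAMP response element TGACGTCA, 54 bases before the gene. Over 35116 promoters of 300 bases, 250 before and 50 after the start, TGANTCA was found in 7.71%, the heat shock element in 0.49% and TGACGTCA in 1.85%, each on both strands. Of the 25 genes with the largest differences, 15 had a promoter in the table. Besides HSPA6 and MAFF, ZSCAN9 held TGANTCA, and GCGNGGGCG, an EGR motif found in 9.43% of all promoters, was held by ARRDC3, ELAC1, SPRY4 and TMEM151A. The CArG box of the serum response factor (1.29% of all promoters) was found in 0 of the 15. A match describes letters only and is no evidence of binding.

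Each array held 45015 spots. Without the controls 43376 remained, for 41000 probes. Median intensity ranged from 202 to 410 on the PT arrays and from 248 to 380.5 on the p31-43 arrays where the local background had medians of 49 to 65. From 27660 spots (PT replicate 4) to 31739 spots (p31-43 replicate 4) were well above background, and 25063 probes were so on all 8 arrays. The median SD between the arrays of a group was 0.168 for PT and 0.183 for p31-43 on the log2 scale. Replicates 1 and 2 were scanned in a first round and replicates 3 and 4 in a second. Of the 5 slides 3 held both treatments, with PT replicate 3 beside p31-43 replicate 4 on the fifth. Precision is limited by having 4 arrays per treatment.

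The cells carried the markers of colon epithelium. All 9 markers, such as EPCAM, CDH1, VIL1 and KRT18, were well above background on all 8 arrays, and their summed intensity was 890000 to 958000 with PT and 868000 to 1060000 with p31-43. Of 15 markers of other cell types, 9 were well above background on all 8 arrays while COL1A2, PTPRC and KDR were so on none. Their summed intensity was 2710 to 4540 with PT and 2640 to 3330 with p31-43. CHGA of endocrine cells was 0.29 higher with PT (log2 difference, SE 0.079, limma, adjusted p = 0.219), a call at the nominal threshold not kept with the replicate number as a block (adjusted p = 0.156), and its part in other results was not tested. In RNA of a whole culture, fewer cells of a type and less RNA per cell cannot be told apart.

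Of 40986 probes tested, 1483 (3.62%) had a nominal p under 0.01, the threshold of the study, 696 of them (1.7% of all probes) higher and 787 (1.92%) lower with PT than with p31-43. After Benjamini-Hochberg adjustment 226 probes (0.551%) kept an adjusted p under 0.05 (limma), 129 higher and 97 lower. Arrays of the same number deviated together for numbers 1, 2 and 4 (correlations 0.598, 0.601 and 0.485) and weakly for number 3 (0.149). PT replicate 3 went more with p31-43 replicate 4 on its slide (0.552), so number and slide cannot be fully told apart. A fit with the replicate number as a block is also given: it passed 2888 probes, 1323 of them higher, and 719 after adjustment. Leaving out 1 array left between 1049 and 1580 probes at the nominal threshold but only 17 to 149 after adjustment, 17 without p31-43 replicate 4 and 149 without p31-43 replicate 3. Taking the brightest probe of each of 17228 genes, 417 genes (2.42%) were higher with PT and 455 (2.64%) lower at the nominal threshold, 5.06% in either direction, and the median log2 difference of all genes was -0.0062. A gene is said to rise, fall or pass below where its nominal p was under 0.01.

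**Figure D1:**
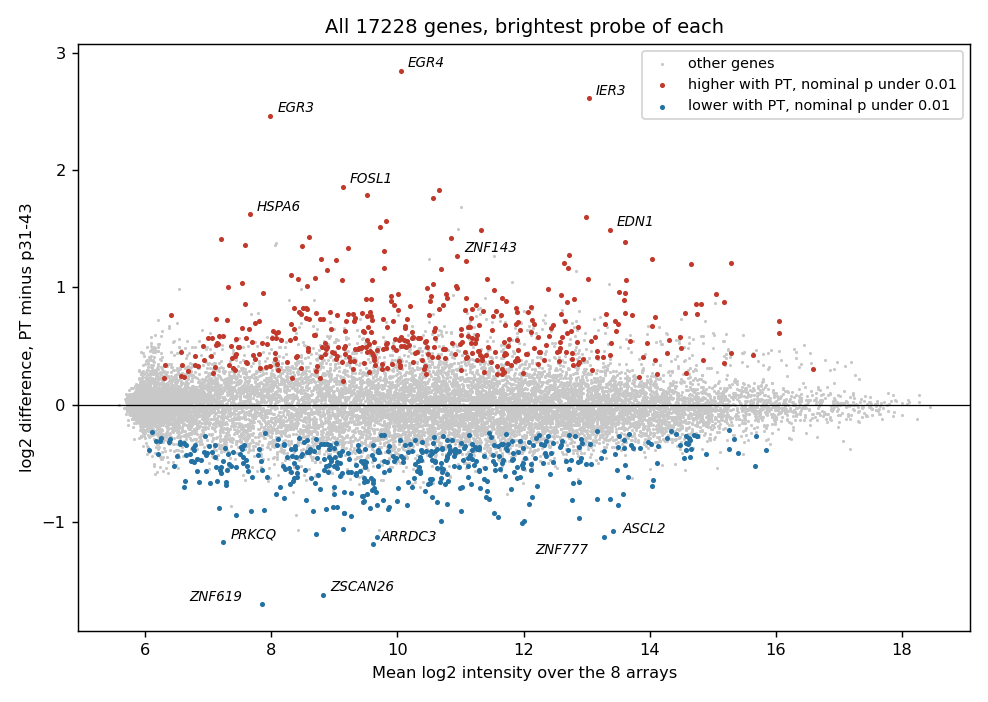
Log2 difference PT minus p31-43 (vertical axis) against the mean log2 intensity over the 8 arrays (horizontal axis), with 1 point for the brightest probe of each of 17228 genes. Red points (417 genes) were higher and blue points (455 genes) lower with PT at a nominal p under 0.01 (limma). The differences reach 2.85 upwards (EGR4) and -1.70 downwards (ZNF619).

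The groups did not overlap at 5.85% of all probes. Among the 399 genes that rose with PT and whose groups did not overlap, the p31-43 mean lay inside the range of the 4 medium arrays and the PT mean outside it for 301, and the reverse held for 12. Among the 437 such genes that fell these numbers were 326 and 8. Both means lay inside the range for 53 and 66 genes and both outside for 33 and 37. These are counts of levels with no test.

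Genes of the early response were the most distant between the agents. EGR4, a zinc finger transcription factor of the early growth response family, measured 11.62, 11.95, 10.80 and 11.54 on the PT arrays and 8.61, 10.09, 8.19 and 7.62 on the p31-43 arrays (log2 intensity). Every PT array lay above every p31-43 array, although p31-43 replicate 2 came within 0.71 of the lowest. The log2 difference was 2.85 (SE 0.51, limma, adjusted p = 0.0654), which is 7.2-fold, and with the replicate block the adjusted p was 0.0304. It was 2.43 in the first scan round and 3.26 in the second, and 3.00, 1.86 and 3.19 on the 3 slides that held both treatments.

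IER3, an immediate early gene that regulates cell survival, measured 14.24, 14.17, 14.34 and 14.62 with PT and 11.72, 12.18, 11.10 and 11.93 with p31-43. It was 6.11-fold higher with PT, a log2 difference of 2.61 (SE 0.22, limma, adjusted p = 0.00769). The spread between PT cultures (SD 0.19) was smaller than that between p31-43 cultures (SD 0.46), and the groups stood 2.00 apart at their nearest arrays. EGR3, the related factor, measured 8.92, 9.13, 9.03 and 9.78 with PT and 6.39, 7.39, 6.82 and 6.40 with p31-43, a difference of 2.46 (SE 0.27, limma, adjusted p = 0.0198). FOSL1, a FOS-like subunit of AP-1, measured 10.03, 10.34, 9.74 and 10.13 with PT and 8.32, 8.94, 7.62 and 7.91 with p31-43. Its difference was 1.86 (SE 0.28, limma, adjusted p = 0.037), and a second probe of the gene gave 1.41.

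The early response list holds transcription factors and also IER3. Of its 29 genes on the array, 12 rose with PT relative to p31-43 at a nominal p under 0.01 (41.4%, against 2.42% of all genes) and 0 fell. Their median log2 difference was 0.77, and 28 of the 29 values were above 0. The median was 0.80 in the first scan round and 0.79 in the second, and 1.00, 0.57 and 0.68 on the 3 shared slides. MAFF (1.83), the orphan receptors NR4A3 (1.41) and NR4A1 (1.38), JUNB (1.24), KLF6 (0.94), ATF3 (0.93), KLF5 (0.89) and KLF10 (0.84) completed the 12. JUN (0.81), EGR1 (0.49), FOS (0.29) and SRF (0.20) did not pass, with EGR1 at a mean log2 intensity of 14.78 with PT and 14.30 with p31-43.

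Inhibitors that feed back on MAP kinase signalling were the list with the largest share of calls. Of 24 measured, 13 rose with PT (54.2%, against 2.42% of all genes) and 0 fell, with a median log2 difference of 0.72. It was 0.51 and 0.86 in the first and second scan round. DUSP5, a nuclear phosphatase of ERK, measured 11.69, 11.41, 11.29 and 11.36 with PT and 9.65, 10.08, 9.67 and 9.29 with p31-43. The groups stood 1.21 apart at their nearest arrays, with a difference of 1.76 (SE 0.17, limma, adjusted p = 0.0121). DUSP6, its cytoplasmic counterpart, measured 13.98, 13.85, 13.60 and 13.77 with PT and 12.45, 12.88, 11.79 and 11.66 with p31-43, a difference of 1.60 (SE 0.26, limma, adjusted p = 0.0494). SPRY4 (1.56), a Sprouty inhibitor of receptor tyrosine kinase signalling, RGS16 (1.42) and RGS2 (1.28), which switch off G proteins, NAB2 (1.07), a corepressor of EGR factors, ERRFI1 (1.06), an inhibitor of the EGF receptor, and DUSP4 (0.93) rose as well. SPRY2, PHLDA1, SPRY1, DUSP8 and DUSP1 rose by 0.71 to 0.79. Among the 4 values below 0, none of which passed, the lowest were LRIG1 (-0.12) and RASA1 (-0.27).

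**Figure D2:**
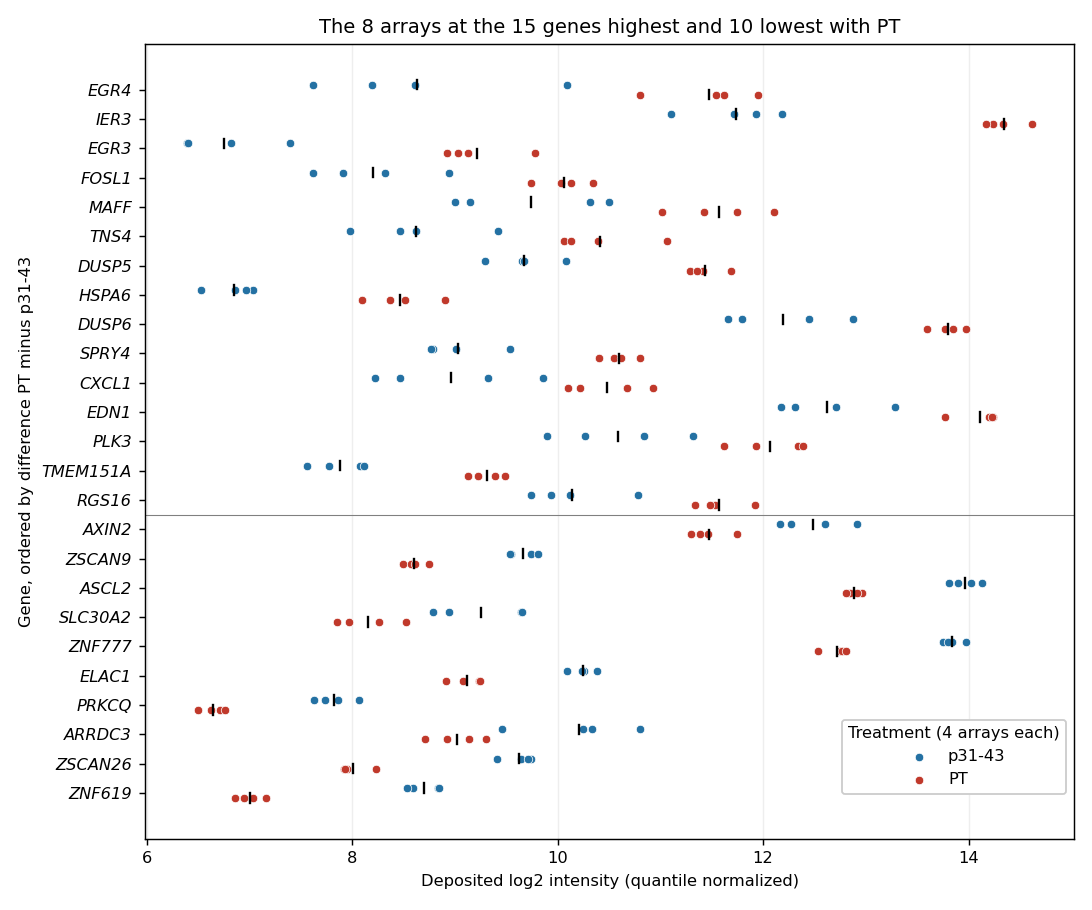
Log2 intensity (horizontal axis) on the 4 PT arrays (red) and the 4 p31-43 arrays (blue) for the 15 named genes highest and the 10 lowest with PT, with a black tick at each group's mean. The groups do not overlap at any of these genes, as their selection required, and the p31-43 arrays spread most at EGR4, from 7.62 to 10.09.

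The other genes among the 15 highest had differences of 1.42 to 1.83. TNS4, a tensin of focal adhesions, was 3.46-fold higher with PT. EDN1, the precursor of endothelin-1, and PLK3, a polo-like kinase of the stress response, were both 2.81-fold higher, and TMEM151A, a transmembrane protein, 2.69-fold. Of the 15, 10 had an adjusted p under 0.05 without and 15 with the replicate block, and of the 10 lowest genes 7 without and 9 with it. As levels only, the p31-43 mean of all 15 lay inside the range of the medium arrays, and the 4 PT-G arrays lay above every p31-43 array at 14 of the 15, CXCL1 being the exception (9.56 to 11.06 with PT-G, up to 9.86 with p31-43).

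Secreted and surface growth regulators moved in part. HBEGF, a ligand of the EGF receptor, measured 10.37, 10.27, 10.45 and 10.38 with PT and 9.53, 9.72, 9.49 and 9.35 with p31-43. It rose by 0.85 (SE 0.091, limma, adjusted p = 0.0198), with all PT arrays above all p31-43 arrays. AREG, amphiregulin, rose by 0.72 (SE 0.16, limma, adjusted p = 0.139). HBEGF and AREG were the 2 of 13 members of the EGF receptor list that passed (15.4%, against 2.42% of all genes). EREG (0.61, adjusted p = 0.554) did not. The receptor EGFR itself differed by -0.027. Of 25 genes for protease-activated receptors, plasminogen activation and protease inhibitors, 2 rose (8%, against 2.42% of all genes). They were the protein C receptor PROCR (0.64, limma, adjusted p = 0.0396) and the urokinase gene PLAU (0.31, adjusted p = 0.235). With the replicate block 5 rose, against 4.43% of all genes. The protease-activated receptor gene F2RL1 had a value of 0.58 (adjusted p = 0.718) and passed only with the block (adjusted p = 0.133). The ephrin ligand EFNA4 (0.45) rose alone among 16 ephrins and Eph receptors (6.25%, against 2.42% of all genes). EPHA2 had a larger value that did not pass (1.27, adjusted p = 0.423).

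Among 30 NF-kB subunits, inhibitors and targets, 6 rose (20%, against 2.42% of all genes) and 0 fell at the nominal threshold. With the replicate block 11 rose, against 4.43% of all genes. The chemokine gene CXCL1 measured 10.93, 10.67, 10.10 and 10.22 with PT and 9.32, 9.86, 8.22 and 8.46 with p31-43. Its lowest PT array lay only 0.24 above its highest p31-43 array, and the difference of 1.51 (SE 0.37, limma, adjusted p = 0.172) no longer passed without PT replicate 1 (1.36), PT replicate 2 (1.45) or p31-43 replicate 4 (1.35). The epithelial chemokine CCL20 measured 8.44, 8.96, 8.89 and 9.14 with PT and 7.67, 8.02, 7.48 and 7.85 with p31-43, a difference of 1.10 (SE 0.17, limma, adjusted p = 0.0438). ICAM1, an adhesion molecule, rose by 0.80 (SE 0.084, limma, adjusted p = 0.0184), and BCL3 (0.69) and NFKBIE (0.34), both IkB family members, rose as well. CXCL8 (interleukin 8) was not well above background on any p31-43 array and was so on all 4 PT arrays. It was at least 1.68-fold higher with PT (limma, adjusted p = 0.0734), where the bound sets the PT mean against each p31-43 array's dimmest signal that still counted as well above background, or the probe's own if brighter. The subunits RELA (-0.11) and NFKB1 (-0.15) did not pass, and TNF, IL1A and IL1B were not well above background on all arrays.

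In the IL-6 family and SOCS list 3 of 16 rose (18.8%, against 2.42% of all genes). IL11 rose by 1.08 (SE 0.23, limma, adjusted p = 0.112) and the suppressor CISH by 0.58 (adjusted p = 0.198), although a second CISH probe gave 0.085. IL6 was well above background on 2 PT arrays and no p31-43 array, and its call was lost with the replicate block (adjusted p = 0.211, without the block 0.273). LIF had a value of 0.94 that did not pass (adjusted p = 0.34).

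Regulators that shorten the life of mRNAs or slow proliferation also rose, 5 of 13 (38.5%, against 2.42% of all genes) with 0 lower. ZFP36, which binds AU-rich elements and promotes decay, measured 13.40, 13.38, 13.17 and 13.23 with PT and 12.17, 12.56, 11.76 and 12.03 with p31-43. Its groups stood 0.61 apart at their nearest arrays, and the difference was 1.16 (SE 0.16, limma, adjusted p = 0.0329). BTG2 and the ribonuclease gene ZC3H12A (0.82 each), ZFP36L1 (0.58, with a dimmer probe at 0.25 not passing) and BTG1 (0.43) were the other members. The number fell to 3 without PT replicate 2, PT replicate 4, p31-43 replicate 3 or p31-43 replicate 4, and with background-subtracted signal.

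CDKN1A, the p21 inhibitor of cyclin-dependent kinases, rose by 1.34 (SE 0.23, limma, adjusted p = 0.0567), and a second probe gave 0.64. It measured 10.02, 10.20, 9.62 and 9.72 with PT and 8.68, 9.11, 8.14 and 8.29 with p31-43. The other 31 genes of the DNA replication and cell cycle list all had values below 0, from -0.075 for CDK1 to -0.56 for POLD3, with a list median of -0.29. At the nominal threshold 3 of them fell with PT (9.38%, against 2.64% of all genes). With the replicate block 8 fell, against 4.96% of all genes. POLD3, a subunit of DNA polymerase delta, measured 13.23, 13.20, 13.18 and 13.23 with PT and 13.64, 13.74, 14.07 and 13.62 with p31-43. Its PT arrays agreed within 0.05 and its difference was -0.56 (SE 0.11, limma, adjusted p = 0.0807). GINS2 (-0.34) of the replicative helicase and CDT1 (-0.29) of origin licensing were the others. The list median was -0.17 in the first and -0.36 in the second scan round.

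The zinc finger genes named ZNF, many of which encode DNA-binding repressors, lay on the lower side with PT. Of 409 measured, 45 were lower (11%) and 6 higher (1.47%), against 2.64% and 2.42% of all genes. With the replicate block the numbers were 76 lower and 12 higher, against 4.96% and 4.43% of all genes. The median log2 difference was -0.16, and 312 of the 409 values were below 0. It was -0.073 in the first and -0.23 in the second scan round, and -0.079, -0.063 and -0.11 on the 3 slides with both treatments. The 10th percentile of these genes was -0.48 and that of all genes -0.26, as the cumulative plot of zinc finger genes shows. Of the 194 ZNF genes on chromosome 19, where this family forms clusters, 13 were lower (6.7%), and of the 215 elsewhere 32 were (14.9%), a difference that was not tested.

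ZNF619 had the largest fall of all named genes. It measured 7.16, 6.95, 7.03 and 6.86 with PT and 8.83, 8.59, 8.84 and 8.53 with p31-43, and all PT arrays lay 1.37 or more below all p31-43 arrays. The difference was -1.70 (SE 0.1, limma, adjusted p = 0.00304), so that p31-43 cells were 3.25-fold higher. It was -1.66 and -1.74 in the 2 scan rounds. ZNF777 (-1.13, limma, adjusted p = 0.00578) and ZNF181 (-0.94, adjusted p = 0.0924) followed among those with the ZNF prefix. ZSCAN26 (-1.62, SE 0.11, limma, adjusted p = 0.00304), with a second probe at -1.59, and ZSCAN9 (-1.06, adjusted p = 0.00786), SCAN domain zinc finger genes that the list does not hold, also fell. ZSCAN26 and ZSCAN9 lie close together on chromosome 6 with 2 protein-coding genes, ZKSCAN4 and NKAPL, between them in the RefSeq order, and ZKSCAN4 fell by 0.90 (limma, adjusted p = 0.023) whereas NKAPL had a value of -0.035.

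ZNF143, an activator of small nuclear RNA and other promoters, went the other way and had the smallest adjusted p of all probes. It measured 11.59, 11.56, 11.64 and 11.52 with PT and 10.33, 10.31, 10.30 and 10.29 with p31-43. The spread within each group was very small (SD 0.048 and 0.02) and the difference was 1.27 (SE 0.058, limma, adjusted p = 0.000723). A second, dimmer probe of ZNF143 gave 0.34 (SE 0.34), which did not pass. The difference of the brighter probe was 1.26, 1.24 and 1.35 on the 3 slides with both treatments.

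**Figure D3:**
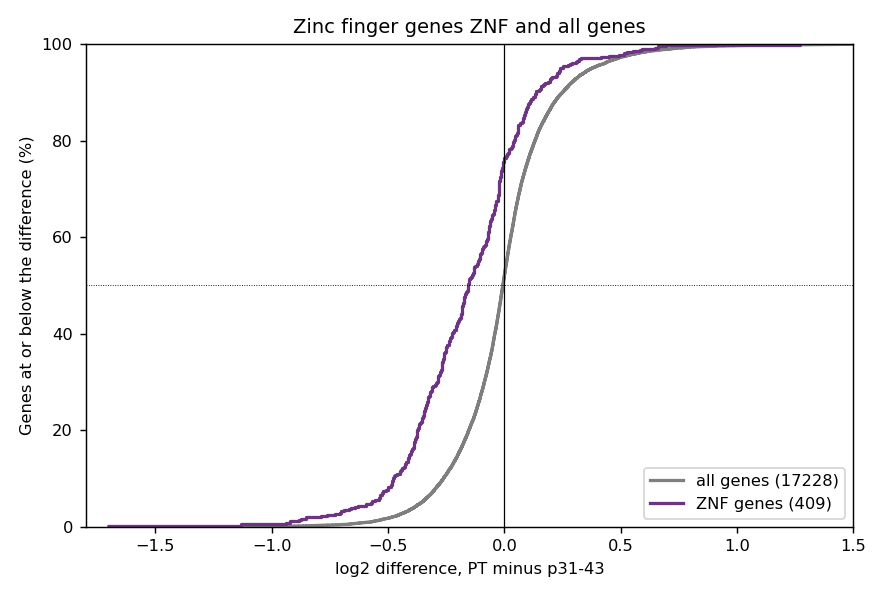
Share of genes (vertical axis, %) at or below each log2 difference PT minus p31-43 (horizontal axis) for 409 ZNF genes (purple) and all 17228 genes (grey). The purple curve lies to the left over most of the range, with its median at -0.16 against -0.0062.

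Genes of intestinal stem cells and of WNT signalling were split. ASCL2, a transcription factor of intestinal stem cells, measured 12.96, 12.85, 12.81 and 12.91 with PT and 14.13, 14.02, 13.81 and 13.90 with p31-43. It fell by 1.08 on the log2 scale (SE 0.086, limma, adjusted p = 0.00578), with every PT array below every p31-43 array, whereas a dimmer second probe of the gene gave -0.39 (adjusted p = 0.493). AXIN2, a scaffold of the complex that degrades beta-catenin and a target of it, measured 11.75, 11.39, 11.30 and 11.46 with PT and 12.60, 12.16, 12.91 and 12.27 with p31-43. Its difference was -1.01 (SE 0.18, limma, adjusted p = 0.0645), and its other probes gave -0.90 and -0.58. SP5 (-0.41) also fell, and its other probes gave -0.45 and 0.92 (SE 0.72), the latter not passing. In all 3 of 16 WNT targets were lower (18.8%, against 2.64% of all genes), and 5 were without p31-43 replicate 4. With the replicate block 7 were lower, against 4.96% of all genes. SOX9 (0.75) and NOTUM (0.31) rose (12.5%, against 2.42% of all genes), and the list median was 0.026. The LGR5 value (-0.43) came from a probe not well above background on all arrays.

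CEBPA, a transcription factor of differentiated epithelial cells, was lower with PT. It measured 13.93, 13.98, 13.54 and 13.49 with PT and 14.48, 14.52, 14.27 and 14.23 with p31-43, and the groups did not overlap. The difference was -0.64 (SE 0.14, limma, adjusted p = 0.121), a second probe gave the same value and another gave 0.79 (SE 0.88). The enzymes and carriers of the brush border gave small values, such as SI (0.14), LCT (0.14), DPP4 (-0.024) and ALPI (0.068), none of which passed. CLDN3, a claudin of tight junctions, rose by 0.56 (limma, adjusted p = 0.0706), alone among 17 tight junction genes (5.88%, against 2.42% of all genes).

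The remaining lower genes were of several kinds. ARRDC3, an arrestin-related adaptor, fell by 1.19 (limma, adjusted p = 0.141, with the block 0.0299), with a dim second probe at -0.23. PRKCQ, protein kinase C theta, fell by 1.17 (adjusted p = 0.0118) and was well above background on 3 of the 4 PT arrays. ELAC1, a nuclease of tRNA ends, fell by 1.13 (adjusted p = 0.00869), and SLC30A2, a zinc exporter, by 1.10 (adjusted p = 0.125). SLC30A1, the other zinc exporter of note, fell by 0.71 with overlapping groups (limma, adjusted p = 0.276). It was the only call among 12 metallothionein and zinc transport genes (8.33%, against 2.64% of all genes). None of the 10 metallothionein genes in that list passed, their values running from -0.16 (MT2A) to 0.26 (MT3). The median of the 12 was -0.013, but it was -0.32 in the first scan round and 0.34 in the second, so the pooled values average over opposite directions. Of 34 aminoacyl-tRNA synthetases, the mitochondrial TARS2 (-0.71, limma, adjusted p = 0.0284) and AARS2 (-0.54) fell (5.88%, against 2.64% of all genes) and 0 rose. In this list 30 of the 34 values were below 0 (median -0.15). FARSB, a synthetase subunit that this list does not hold, fell by 0.22 (limma, adjusted p = 0.272).

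**Figure D4:**
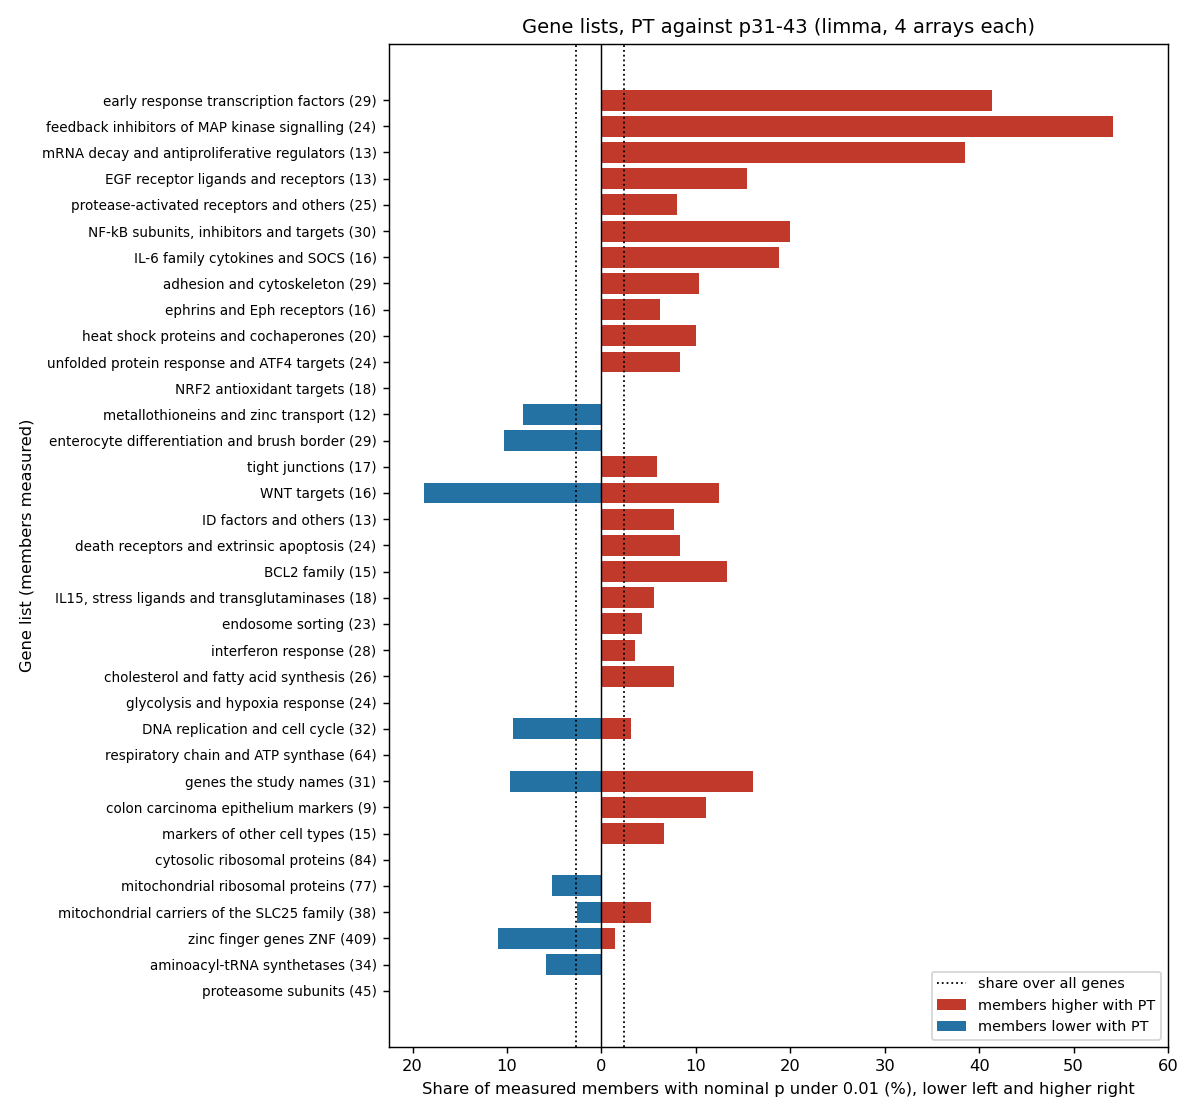
Share of the measured members of 35 gene lists that passed a nominal p under 0.01 (horizontal axis, %), higher with PT to the right (red) and lower to the left (blue), with the number measured beside each name. Dotted lines mark the shares over all genes, 2.42% higher and 2.64% lower. MAP kinase feedback (54.2%) and the early response list (41.4%) have the largest shares on the right. WNT targets have the largest on the left (18.8%, which is 3 of 16) but also 12.5% on the right. ZNF genes (11%), enterocyte differentiation (10.3%), genes the study names (9.68%) and DNA replication (9.38%) follow on the left.

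Stress and cell death genes passed singly. HSPA6 measured 8.90, 8.51, 8.09 and 8.37 with PT and 7.03, 6.86, 6.53 and 6.97 with p31-43. All PT arrays lay 1.07 or more above all p31-43 arrays, with a difference of 1.62 (SE 0.18, limma, adjusted p = 0.0198). Of 20 heat shock proteins and cochaperones DNAJB1 also rose (0.45, adjusted p = 0.268, groups overlapping), and the abundant HSPA8 (-0.032) and HSP90AB1 (-0.13) gave small values. TRIB3 (0.61) and XBP1 (0.42) rose in the list of 24 for the unfolded protein response, where DDIT3 (-0.010) and HSPA5 (-0.22) did not pass. TNFRSF10B, a receptor of the death ligand TRAIL, rose by 0.69 (SE 0.10, limma, adjusted p = 0.0355) and CASP10 by 0.42 among 24 death receptor genes. BIK (0.63) and MCL1 (0.36) rose among 15 BCL2 family members, the former not with the replicate block (adjusted p = 0.153). Of relatives that this list does not hold, BCL2L14 rose (1.00) and BCL2L10 fell (-0.51). MICB, a stress ligand of NK and T cells, rose by 0.91 (SE 0.22, limma, adjusted p = 0.164), alone among 18 genes that included IL15 (-0.15). The shares that rose were 10% of the heat shock list and 8.33% each of the unfolded protein and death receptor lists. They were 13.3% of the BCL2 list and 5.56% of the IL15 list, against 2.42% of all genes.

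Elsewhere few members passed, and single members are given as values of those genes, with nothing read about their lists. The share of members that rose was 10.3% of the adhesion list and 7.69% each of the lipid synthesis list and the ID, SMAD and Notch list. It was 11.1% of the 9 epithelial markers, 5.26% of the mitochondrial carriers, 4.35% of the endosome list and 3.57% of the interferon list. Of all genes 2.42% rose. Of the carriers 2.63% fell, against 2.64% of all genes. Among the genes that rose were ELOVL6 (0.47), a fatty acid elongase of the lipid synthesis list, and ID2 (0.63) of 13 ID, SMAD and Notch genes. ANKRD1 (1.21) and ITGA2 (0.65, call lost with the block) rose beside TNS4 of 29 adhesion genes. So did TFEB (0.50) of 23 endosome genes, IFIT2 (0.32) of 28 interferon genes and KRT20 (0.39) of the 9 epithelial markers. SLC25A29 (0.68, limma, adjusted p = 0.0227) and SLC25A33 (0.26, call lost with the block) rose and SLC25A28 (-0.27) fell among 38 mitochondrial carriers. Of 77 mitochondrial ribosomal proteins 4 fell (5.19%, against 2.64% of all genes). They were MRPL35 and MRPL15 (-0.45 each), MRPL9 (-0.33) and MRPL27 (-0.31), the last pair without a call under the block. Other MRPL35 probes gave -0.099 and -0.054, neither passing. At the nominal threshold 0 members passed among 18 NRF2 targets, 24 glycolysis and hypoxia genes, 64 respiratory chain genes, 84 cytosolic ribosomal proteins and 45 proteasome subunits (limma). With the replicate block 4 of the 24 glycolysis and hypoxia genes rose and 0 fell, against 4.43% and 4.96% of all genes. Of the 18 NRF2 targets 1 rose and 1 fell under the block, and in the other lists just named 0 passed. The block also gave 4 heat shock genes, 2 ephrin and Eph genes, 2 tight junction genes, 3 genes of the IL15 and stress ligand list, 3 endosome genes and 3 interferon genes that rose, and 1 of the BCL2 family, against 4.43% of all genes that rose under the block.

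Of 31 genes that the study discussed, 5 rose with PT relative to p31-43 (16.1%, against 2.42% of all genes). Another 3 fell (9.68%, against 2.64% of all genes). With the replicate block 10 rose and 5 fell, against 4.43% and 4.96% of all genes. The study picked many of the 31 because they were called on arrays of this same series, so these shares are not independent of that choice. HSPA6 and RGS16 were given above, and JUNB, a subunit of AP-1, measured 14.89, 14.90, 14.39 and 14.48 with PT and 13.41, 14.13, 13.24 and 12.90 with p31-43. The p31-43 arrays spread over more than a log2 unit, and the JUNB difference was 1.24 (SE 0.26, limma, adjusted p = 0.106). NAB2 rose by 1.07 and PROCR by 0.64, while CEBPA, POLD3 and the nucleotide hydrolase gene NUDT2 (-0.39, adjusted p = 0.121) fell. KLF4 (0.70), SPRED1 (0.38), DLX4 (0.47), MSI2 (0.39), FASTK (-0.42) and FASTKD2 (-0.41) did not pass without the block (limma, adjusted p = 0.289 to 0.708) and did with it (adjusted p = 0.0432 to 0.13). A second MSI2 probe gave -0.35 (SE 0.069), a fall with PT that passed the nominal threshold without the block. The probes of MSI2 thus went in opposite directions, and no direction is read for this gene. UQCC2, the gene known as MNF1, measured 13.04, 13.17, 13.25 and 13.34 with PT and 13.48, 13.61, 12.89 and 13.54 with p31-43, and RELA 10.32, 10.38, 10.23 and 10.09 with PT and 10.53, 10.51, 10.16 and 10.28 with p31-43. The groups overlapped at both, with differences of -0.18 (SE 0.16) and -0.11 (SE 0.11) (limma, adjusted p = 0.96 and 0.964). FAS and FASLG were not well above background on any of the 8 arrays.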

How the data were processed

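RNA of Caco-2 cells was measured on single-colour Agilent arrays, 4 for PT and 4 for p31-43. The deposited log2 values hold the authors' quantile-normalized median foreground of all 16 arrays, per the labels with limma (version not given in the sources used here), without background correction. The deposited linear intensity columns and marks of the scanner files gave depth, outliers and alternatives. Rows of the log2 table were matched to spots by order (rank correlation 1.0 with the intensity on every array), 1639 control spots and spots marked as outliers were left out, the spots of a probe were averaged (264 probes had more than 1), and 14 of 41000 probes with fewer than 3 arrays in a group were dropped. For the other 40986 a fit with limma 3.58.1 (R 4.3.3) was made (6 residual and 2.04 prior degrees of freedom, 2-sided, PT minus p31-43, no block), with the study's nominal p under 0.01 and the Benjamini-Hochberg adjusted p over all probes beside it. The fit was tested on simulated data with known changes. A positive difference is higher with PT. Replicates are cultures of independent experiments.

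Per gene the probe with the highest mean over the 8 arrays was used. Of the probes, 23434 were named by accession, 2259 by symbol and 1040 by synonym in the RefSeq table, and 308 kept the array's name. Named genes are the 15 largest positive and 10 largest negative differences (nominal p under 0.01, no overlap, well above background on all arrays of the higher group), up to 4 members of each of 35 lists that passed and had the largest difference, and the genes the study discusses. Members without values on the array were SPRED3, KRT80, HSPA1B, RAET1G and NDUFA4. A value given for a further list member or a second probe was chosen after its values were seen. Some list members that passed are not reported here. The comparison and lists were chosen with earlier results of these data known.

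The study ran 4 independent experiments, and the sample titles number the arrays of a group without naming the experiment. Deviations from the group means of PT and p31-43 arrays with the same number correlated at 0.598, 0.601, 0.149 and 0.485 over 40816 probes. The numbers were therefore taken to pair the samples, which is an assumption. PT replicate 3 correlated more with p31-43 replicate 4 on the same slide (0.552). Alternatives were other values and normalizations, background correction (normexp with offset 50, or processed intensity scaled to the 75th percentile), a filter on dim probes, all 16 arrays in 1 model, blocks for replicate, slide or scan round (duplicateCorrelation needs statmod 1.5.0), an intensity trend, array weights and leaving out each array.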

Additional observations from a re-analysis of the deposited data

Results flagged for a closer look

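Of 210 groups of 4 arrays at the named genes, 6 held an array set far apart from its group. By chance 1 in 20 would be flagged. Most of these genes were chosen for passing the nominal threshold, which favours tight groups, so the number cannot be compared with that rate. EDN1 was at 13.77 on PT replicate 3, the other PT arrays lying between 14.20 and 14.24. ZSCAN26 was at 8.23 on PT replicate 1 (7.92 to 7.95 on the others) and CISH at 10.81 on PT replicate 4 (10.17 to 10.22). SLC25A28 was at 12.55 on PT replicate 3 (12.70 to 12.73). EFNA4 was at 10.62 on p31-43 replicate 1 (10.88 to 10.94), and NUDT2 at 11.25 on p31-43 replicate 2 (11.40 to 11.41).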

How the results depend on the processing

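The number of arrays and signal over background limit these results, and 9237 probes were well above background on none of the 8 arrays. The replicate number as a block pairs arrays of the same number. That these shared an experiment was assumed, as the sample titles give only the number. This block passed 2888 probes at the nominal threshold (719 adjusted) and 226 list members in place of 138. It changed the calls named with it in the report and no other named call. Counts at the nominal threshold were 1483 in the fit as reported, 2437 with the scan round, 5526 with the slide as a fixed block (which gives no weight to PT replicate 4 and p31-43 replicate 3) and 5013 as a random block, with 353 and 324 list members. The background-subtracted signal passed 923 probes and 89 list members, with 59.9% of the probes higher with PT in place of 46.9%, and its median over all probes was 0.11. After adjustment the 226 probes became 483 with array weights, 9 with background-subtracted signal, 51 with an intensity trend, 116 with median scaling, 729 with the scan round, 3996 with the slide fixed and 3826 with the slide random. Leaving out 1 array gave 1049 to 1580 probes nominally, 17 to 149 adjusted, 105 to 138 list members and 61 to 68 of the 82 named genes called. The causes were not tested.

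No called named gene changed sign under any of these settings. With the background-subtracted signal 59 of the 82 passed, with median scaling 63, and under the other settings that keep all arrays 66 to 82. Values near 0 changed sign: B2M to -0.03 with array weights; CASP8 to -0.081 with array weights, -0.058 with median scaling, -0.09 with the slide fixed and -0.057 with it random; CD59 to -0.055, -0.11 and -0.068 with array weights, slide fixed and slide random. CXCR3 became -0.062 with the slide fixed, FAS -0.0044 with the mean foreground and -0.013 with normexp, and MYO6 -0.0016 with median scaling. Leaving out 1 array gave B2M -0.04 to 0.044, CASP8 -0.28 to 0.35, CD59 -0.075 to 0.2, FAS -0.0048 to 0.023, MYO6 -0.015 to 0.1 and SLC25A6 -0.0081 to 0.15. Over 22 settings the median of the early response list was 0.61 to 0.91, of MAP kinase feedback 0.58 to 0.79, of DNA replication -0.31 to -0.19 and of ZNF genes -0.20 to -0.080. The median of WNT targets took the other sign under 7. Lower ZNF genes numbered 21 with the background-subtracted signal, 28 with an intensity trend, 84 with the slide fixed and 89 with it random, in place of 45.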
